A study of Mus musculus with 15 samples.

Results

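The late recovery of the mouse auditory nerve after loud noise was examined on 9 of the 15 arrays of the series: 3 from unexposed controls, 3 from animals taken 7 days after noise and 3 from animals taken 14 days after it. The arrays were chosen by their titles, and the question was which differences from control were present at both late times. All groups were CBA/CaJ mice aged 5 to 12 weeks, with no transgene, and the exposed animals spent 2 h in octave-band noise (106 dB SPL, 8 to 16 kHz). Each array held nerve tissue joined from the ears of a single animal, so n counts animals. Sex differed between the groups: the 3 controls were female, while each late group had 1 male, its replicate 1, and 2 females. The sources used here do not give the hour of day at which tissue was taken.

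The auditory nerve carries signals from the hair cells of the cochlea to the brainstem, and its spiral ganglion neurons are wrapped by myelinating Schwann cells. The circadian clock, which also runs in the cochlea, is a transcriptional loop in which ARNTL and CLOCK switch on the Per and Cry genes, whose products block that activation. The same activators drive output genes such as Dbp, and the nuclear receptors NR1D1 and NR1D2 repress Arntl and Nfil3. ARNTL and CLOCK bind the E-box CACGTG, and NR1D1 and the ROR receptors bind the element TAGGTCA.

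Values are deposited log2 intensities, in which a difference of 1 is a doubling. Markers of Schwann cells (Mbp, Pmp22) and of neurons (Nefl, Snap25) lay between 13.23 and 14.02 and between 13.35 and 13.51 on all 9 arrays. Of the other Schwann cell markers, S100b lay between 12.47 and 12.67 and Sox10 between 9.59 and 10.44. Other neuronal markers lay between 11.64 and 12.05 (Nefm), 9.37 and 9.56 (Tubb3), 8.01 and 8.64 (Gata3) and 7.25 and 7.74 (Prox1). The oligodendrocyte marker Mobp lay between 9.72 and 11.37, while Mog, Olig2 and Opalin lay between 4.85 and 7.01. The B cell markers Cd79a, Cd79b and Ms4a1 lay between 3.43 and 4.74, and their means in all 3 groups were below the level of 4.70 under which genes were left out. Control replicate 3 stood apart in neutrophil, bone and erythroid genes, and 14-day replicate 2 in interferon response genes. The 18S ribosomal RNA control sets differed between the groups. The 5′ set read 12.37, 12.07 and 11.82 in controls, 11.49, 11.04 and 11.00 at 7 days and 11.67, 11.38 and 11.30 at 14 days (pooled difference -0.77 ± 0.11, adjusted p = 0.0137 by limma). The middle set differed by -0.92 (adjusted p = 0.00258) and the 3′ set by -0.20 (adjusted p = 0.758), while the 6 actin and Gapdh sets differed by 0.00 to 0.10. Their part in the results below was not tested.

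Few genes passed the test at the late times. With 7 and 14 days weighted equally, 2 genes were higher and 3 lower than control at an adjusted p under 0.05 (limma, Benjamini-Hochberg over 13644 genes), 0.0366% of those tested. The higher genes were the long noncoding RNA Neat1 and Ceacam10, and the lower ones the clock genes Dbp and Ciart and the amino acid transporter Slc43a1. For all 5, every late array lay on the same side of every control, as it did for 5.43% of all genes. The 5 did not differ between 14 and 7 days beyond the threshold. Because 0 of all genes tested did, that check could remove no gene. Dbp and Ciart had the smallest p among genes higher at 14 than at 7 days, as given below. At 7 days alone Dbp, Ciart and Neat1 passed (0.022%), and at 14 days alone 0 genes did (0%), with 1071 (7.85%) at an unadjusted p under 0.05. Thus 0 genes passed at both times separately, whereas 600 (4.4%) had an unadjusted p under 0.05 with the same sign at both. Both times were compared with the same controls.

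The count rested on single arrays. Leaving out control replicate 2 gave 0 calls and leaving out 7-day replicate 1 gave 28. It fell to 2 when 7-day replicate 2, 14-day replicate 2 or 14-day replicate 3 was dropped, and to 3 when 7-day replicate 3 or 14-day replicate 1 was. A fit to the 9 arrays alone called 1 gene, Neat1. With sex as a term 10 genes passed, 4 of the 5 among them, and in female arrays alone 21, with 3 of the 5.

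**Figure D1:**
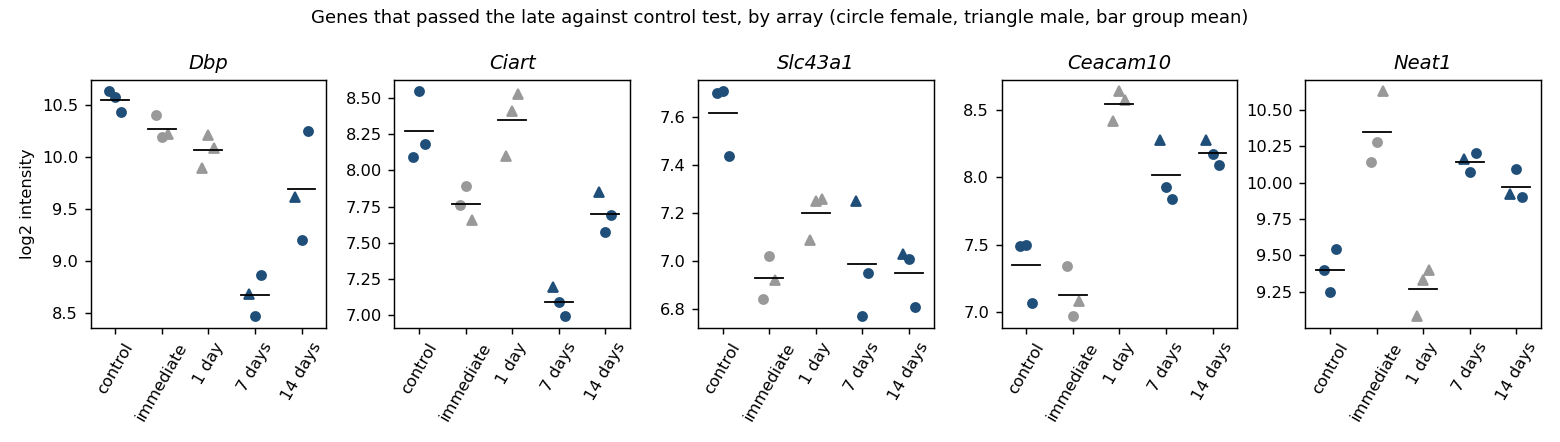
Deposited log2 intensity (vertical axes) of the 5 genes that passed, on each of the 15 arrays by group, with controls and late groups in blue, the earlier times in grey, circles for females, triangles for males and bars for group means (n = 3). Dbp lies between 8.47 and 8.87 at 7 days and between 9.20 and 10.25 at 14 days, below the controls at 10.43 to 10.63.

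Dbp encodes a PAR bZIP transcription factor that is a direct output of the clock. It read 10.63, 10.57 and 10.43 in controls, 8.68, 8.47 and 8.87 at 7 days and 9.61, 9.20 and 10.25 at 14 days. The groups did not overlap, and 14-day replicate 3 came within 0.18 of the lowest control. The pooled fall was 2.57-fold (log2 -1.36 ± 0.16, adjusted p = 0.00688), made of -1.87 ± 0.19 at 7 days (adjusted p = 0.000775) and -0.86 ± 0.19 at 14 days (adjusted p = 0.352). The direction was also seen in the second Dbp probe set, at -1.20 ± 0.17. In female arrays alone the fall was -1.35 and its adjusted p = 0.0506, and without control replicate 2 the adjusted p = 0.0752.

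Ciart encodes CHRONO, a repressor of the ARNTL and CLOCK complex. It read 8.09, 8.55 and 8.18 in controls, 7.19, 7.09 and 6.99 at 7 days and 7.85, 7.57 and 7.69 at 14 days. All 7-day arrays lay below all 14-day arrays, which in turn lay below all controls. The pooled fall was 1.84-fold (log2 -0.88 ± 0.11, adjusted p = 0.00744), with -1.18 ± 0.13 at 7 days (adjusted p = 0.00107) and -0.57 ± 0.13 at 14 days (adjusted p = 0.383). Without control replicate 2 it was -0.74 and the adjusted p = 0.0752. Immediately after noise Ciart stood at -0.50 (adjusted p = 0.0787), and at 1 day at 0.07.

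The promoters of these output genes are shown because both belong to the clock, whose activators bind CACGTG. Each window runs from 250 bases before to 50 after the RefSeq start in GRCm38.p6, printed 5′ to 3′ on the gene's strand, with CACGTG in capitals. The Ciart window is chr3:95882179-95882478 on the minus strand, and the Dbp window is chr7:45704997-45705296 on the plus strand.
Ciart: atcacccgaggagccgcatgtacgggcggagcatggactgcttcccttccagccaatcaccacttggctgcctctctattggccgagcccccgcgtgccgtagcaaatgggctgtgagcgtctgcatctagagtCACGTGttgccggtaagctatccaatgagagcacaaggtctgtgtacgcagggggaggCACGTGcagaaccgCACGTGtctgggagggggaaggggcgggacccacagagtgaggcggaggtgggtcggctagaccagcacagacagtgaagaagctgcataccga
Dbp: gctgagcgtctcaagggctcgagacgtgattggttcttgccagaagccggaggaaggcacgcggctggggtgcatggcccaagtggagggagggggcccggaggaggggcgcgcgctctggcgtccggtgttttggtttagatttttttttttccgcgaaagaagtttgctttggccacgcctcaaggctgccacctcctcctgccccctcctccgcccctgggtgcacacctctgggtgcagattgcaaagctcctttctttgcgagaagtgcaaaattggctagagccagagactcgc
The Ciart window held 3 copies, at positions -116, -58 and -44 from the start, and the Dbp window held 0. CACGTG, which reads the same on both strands, was found in 2349 of 32851 such windows (7.15%), and 29 windows (0.0883%) held 3 or more. Of 17 clock genes with a window, 5 held it in at least 1 of their windows: Per1, Cry1, Tef, Ciart and Bhlhe41. That count is by gene and the percentages are by window, so they are not like measures. Each window of Slc43a1 and of Ceacam10 held 1 copy. TAGGTCA, searched on both strands, was present in 2.61% of windows, among them 1 of the Arntl windows and that of Nfil3. These matches describe the letters of these windows only.

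Slc43a1 encodes LAT3, a transporter of large neutral amino acids. Its values were 7.70, 7.71 and 7.44 in controls, 7.25, 6.77 and 6.95 at 7 days and 7.03, 7.01 and 6.81 at 14 days. No late array reached the lowest control, and the late groups overlapped each other. The pooled fall was 1.57-fold (log2 -0.65 ± 0.10, adjusted p = 0.0365), nearly equal at 7 days (-0.63) and 14 days (-0.67). Earlier it had stood at -0.69 immediately and -0.42 at 1 day. Slc43a1 was called without control replicate 3 (adjusted p = 0.0473) or 7-day replicate 1 (0.0107), and lost without each of the other 7 arrays, with adjusted p up to 0.241.

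Ceacam10 belongs to the carcinoembryonic antigen family of immunoglobulin-like proteins. Controls read 7.49, 7.50 and 7.07, 7-day arrays 8.28, 7.93 and 7.84, and 14-day arrays 8.28, 8.17 and 8.09. The highest value of each late group was that of its male. The pooled rise was 1.68-fold (log2 0.75 ± 0.12, adjusted p = 0.0365), with 0.66 at 7 days and 0.83 at 14 days. At 1 day, where all animals were male, the difference was 1.19. With sex as a term the late difference was 0.69 and its adjusted p = 0.0581, and in female arrays alone it was 0.65 with an adjusted p = 0.0991. Ceacam10 was called without 7-day replicate 1 (adjusted p = 0.0261) or 7-day replicate 3 (0.0445), and lost without each of the other 7 arrays (adjusted p up to 0.192). As the mean over its 3 probe sets it was 0.49 and did not pass (adjusted p = 0.139).

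Neat1 is the long noncoding RNA that scaffolds nuclear paraspeckles. Its brightest probe set read 9.40, 9.25 and 9.54 in controls, 10.16, 10.07 and 10.20 at 7 days and 9.92, 10.09 and 9.90 at 14 days. All late arrays were above all controls. The pooled rise was 1.58-fold (log2 0.66 ± 0.10, adjusted p = 0.0365), with 0.75 ± 0.11 at 7 days (adjusted p = 0.0466) and 0.57 ± 0.11 at 14 days (adjusted p = 0.323). Neat1 had also been higher immediately after noise, by 0.95, and stood at -0.13 at 1 day. Its second probe set went the other way, from 7.09, 7.35 and 7.16 in controls to 6.68, 6.98 and 6.64 at 7 days and 7.13, 7.08 and 6.80 at 14 days (-0.31, unadjusted p = 0.0280). The mean over both sets gave 0.17 and no call (adjusted p = 0.486), so the direction holds for the brightest set. Neat1 was called without control replicate 3 (adjusted p = 0.0473) or 7-day replicate 1 (0.0273), and lost without each of the other 7 arrays (adjusted p up to 0.241).

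Of 20 clock genes tested, Dbp and Ciart fell, 0 rose and 18 did not pass. At an unadjusted p under 0.05, 3 were higher and 6 lower, 45% of the list beside 12.2% of all genes tested (7.28% higher, 4.97% lower). All 6 late arrays lay below all controls for 4 members and above for 1, or 25% beside 5.43% of all genes. The list median was -0.09, and that of all genes was 0.01.

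Among members that did not pass, the repressor genes Per2, Cry2, Nr1d1 and Nr1d2 had negative values. The repressor genes Cry1 and Bhlhe41 went the other way, at 0.12 and 0.13. Per2 read 7.73, 7.60 and 7.60 in controls, 7.17, 7.07 and 7.23 at 7 days and 7.12, 7.34 and 7.52 at 14 days, and Cry2 likewise lay below its controls on all late arrays. Their differences were -0.40 ± 0.10 for Per2 and -0.37 ± 0.12 for Cry2, with adjusted p = 0.172 and 0.248. Nr1d1 differed by -0.68 ± 0.23 (adjusted p = 0.270) and Nr1d2 by -0.25 ± 0.05 (adjusted p = 0.139). For Nr1d1 the 7-day difference was -1.07 and the 14-day one -0.29, and its late arrays overlapped the controls. Without control replicate 2 the pooled difference of Nr1d1 was -0.41.

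On the other side of the loop, the activator gene Arntl and the repressor gene Nfil3, both targets of NR1D1, had positive values and did not pass. Nfil3 read 6.03, 6.67 and 6.75 in controls, 7.29, 6.91 and 7.36 at 7 days and 7.10, 7.18 and 6.86 at 14 days (0.63 ± 0.17, adjusted p = 0.205). Every late array was above every control, and without control replicate 1 the difference was 0.41. Nfil3 had already passed immediately after noise (0.91, limma adjusted p = 0.0415) and at 1 day (0.94, adjusted p = 0.0193). At those times Nr1d1 stood at -0.44 and 0.24. Arntl differed by 0.48 ± 0.15 (adjusted p = 0.235) and the kinase gene Csnk1d by 0.16 (adjusted p = 0.339), with overlapping groups. The partner gene Clock stood at 0.13 and Per1 and Per3 at -0.10 and -0.05.

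**Figure D2:**
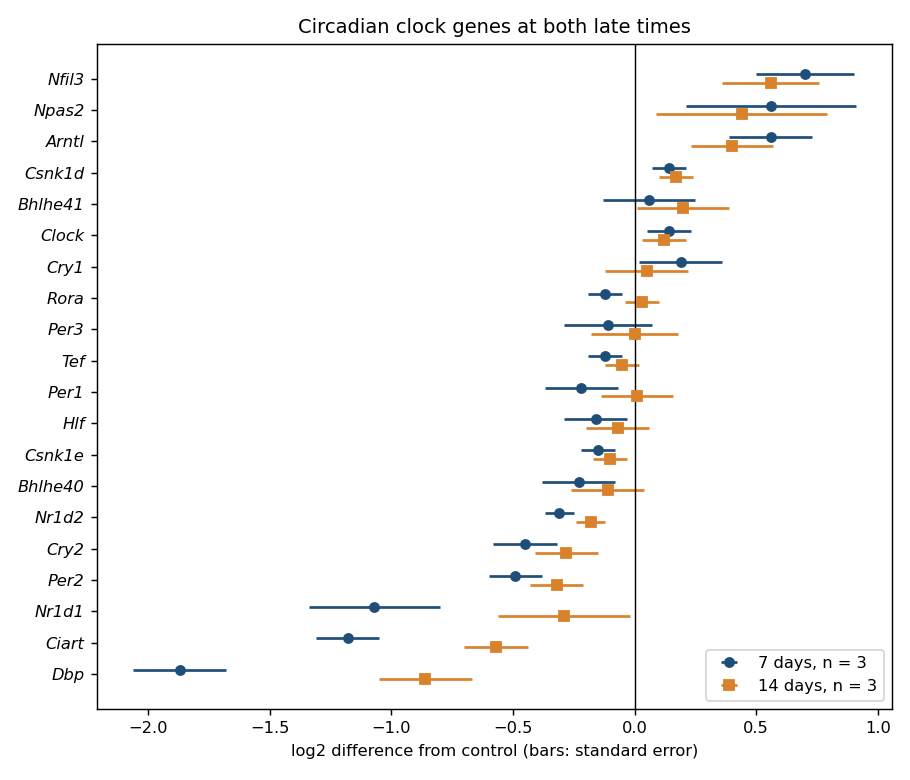
Difference from control in log2 units (horizontal axis) of the 20 clock genes at 7 days (circles) and 14 days (squares), with standard errors of the fit and n = 3 arrays in each group. Dbp, Ciart and Nr1d1 lie farther from 0 at 7 days, at -1.87, -1.18 and -1.07, than at 14 days, at -0.86, -0.57 and -0.29.

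Between the late times themselves 0 genes passed (0%), and 286 (2.1%) had an unadjusted p under 0.05. The smallest p among genes higher at 14 than at 7 days belonged to Dbp (1.01 ± 0.19, adjusted p = 0.504), Ciart (0.61 ± 0.13, adjusted p = 0.872) and Baiap2l1 (1.40 ± 0.29, adjusted p = 0.872). Baiap2l1, an actin regulator, differed from control by -1.36 at 7 days and 0.04 at 14 days. Without 14-day replicate 2 the difference of Dbp was 1.26 and passed (adjusted p = 0.0195). On the lower side the smallest p belonged to Dnajc18 (-0.51 ± 0.08, adjusted p = 0.291), the synaptic vesicle gene Syn2 (-0.30, adjusted p = 1.00) and Sftpc (-0.40, adjusted p = 1.00). The Dnajc18 values at 7 days, 8.03, 7.79 and 7.88, lay above the controls at 7.62 to 7.65, and those at 14 days, 7.21, 7.42 and 7.53, below them. As the mean over its 3 probe sets the difference of Dnajc18 was -0.13 (adjusted p = 1.00).

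Further genes with the smallest p in the pooled comparison did not pass in the main fit but did not overlap with controls. When every probe set was tested by itself, the brightest sets of Tns3, Shh, Fut9, Tcap and Acan passed (limma adjusted p = 0.0346 to 0.0469). That fit rested on few arrays, as given below. The values that follow are those of the main fit. Tns3, a focal adhesion protein, read 10.61, 10.78 and 10.77 in controls and 10.92 to 10.99 on the 6 late arrays (0.25 ± 0.04, adjusted p = 0.0584). Its second probe set went the other way (-0.15), and the mean over both gave 0.05 (adjusted p = 0.816). Shh, the hedgehog ligand, stood at 7.79, 7.78 and 8.07 in controls and 8.22 to 8.75 late (0.51 ± 0.09, adjusted p = 0.0804), and the mean over its sets differed by 0.29 (adjusted p = 0.238). Fut9, a fucosyltransferase, differed by 0.87 ± 0.17 (adjusted p = 0.119) from a control mean of 4.96, close to the lower limit of testing. Immediately after noise Shh had been at 0.49, Fut9 at 0.86 and Tns3 at 0.03. On the lower side, Tcap, a sarcomere protein, differed by -1.20 ± 0.21 (adjusted p = 0.0804). Acan, the cartilage proteoglycan, read 8.52, 8.89 and 8.76 in controls and 8.16 to 8.39 late (-0.44 ± 0.08, adjusted p = 0.0648). It had passed at the earlier times, immediately after noise (-0.54, limma adjusted p = 0.00987) and at 1 day (-0.53, adjusted p = 0.00539). In all, 741 genes (5.43%) had late arrays wholly above (491, 3.6%) or wholly below (250, 1.83%) the controls. A difference of at least 1.5-fold with an unadjusted p under 0.05 was seen for 59 genes (0.432%), 32 higher and 27 lower.

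Quaking, the RNA-binding protein named in the series title, acts in the splicing of myelin transcripts. Its brightest Qk set read 11.28, 11.26 and 11.38 in controls, 11.24, 11.24 and 11.33 at 7 days and 11.21, 11.24 and 11.46 at 14 days. The groups overlapped, with a difference of -0.02 and a 95% interval from -0.16 to 0.12. Over the 7 Qk probe sets the differences ran from -0.36 to 0.05, with 2 at an unadjusted p under 0.05 and 0 called. Of all probe sets tested by themselves, 13.6% had an unadjusted p under 0.05. For the myelin proteins the differences and 95% intervals were 0.02 (-0.08 to 0.11) for Mbp, -0.04 (-0.12 to 0.03) for Pmp22 and 0.24 (-0.04 to 0.52) for Mag, which stood at 0.09 without control replicate 3.

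Of 18 genes of Schwann cells and peripheral myelin, 0 passed, while 7 were higher and 1 lower at an unadjusted p under 0.05 (44.4% beside 12.2% of all genes). The higher ones were mostly regulators and junction proteins. Sox10, the transcription factor of the Schwann lineage, read 9.72, 9.63 and 9.59 in controls, 9.75, 10.24 and 10.38 at 7 days and 9.89, 10.15 and 10.44 at 14 days (0.50 ± 0.14, adjusted p = 0.205). The 2 males gave the lowest late values. The gap junction gene Gjb1 (0.39), Egr2 (0.34), which drives myelin genes, Pou3f1 (0.36), Cldn19 (0.33), Erbb3 (0.27), the neuregulin receptor, and the ligand Dhh (0.25) were also higher without passing. Without 1 control Egr2 stood at 0.18, Cldn19 at 0.19, Pou3f1 at 0.20 and Gjb1 at 0.24. Ncmap, of noncompact myelin, stood at -0.18. In a bulk sample of this kind, fewer cells of a type and less RNA per cell cannot be told apart. The list median was 0.08, between -0.03 and 0.26 on the late arrays and -0.04 and 0.06 on the controls.

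Of 14 heat shock genes 0 passed, and 6 were higher and 0 lower at an unadjusted p under 0.05 (42.9%, beside 7.28% higher among all genes). Hspa1b, an inducible chaperone, read 7.70, 7.78 and 7.45 in controls, 7.96, 8.50 and 9.24 at 7 days and 8.22, 9.00 and 9.62 at 14 days (1.11 ± 0.27, adjusted p = 0.172). In each late group the male was lowest. Its relative Hspa1a stood at 0.73 ± 0.17 (adjusted p = 0.159), the constitutive chaperone Hspa8 at 0.27 ± 0.06 (adjusted p = 0.135) and the co-chaperone Dnajb1 at 0.33 ± 0.09 (adjusted p = 0.205). For these 4 genes, 28.6% of the list, no late array overlapped the controls, beside 3.6% of all genes wholly above them. Hspa1a and Hspa1b are near-identical copies, so their probe sets may share signal. Hspa1b had already stood at 0.95 immediately after noise and 0.57 at 1 day, and Hspa1a at 0.64 and 0.49. The list median was 0.15 late, against 0.18 immediately after noise and 0.04 at 1 day.

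Of 15 interferon response genes 0 passed, 14 were positive and 2 had an unadjusted p under 0.05 (13.3%, beside 12.2% of all genes). For 5 of them every late array lay above all controls (33.3%, beside 3.6% of all genes). The list median was 0.40, and in single arrays it was 0.40, 0.10 and 0.49 at 7 days and 0.14, 1.74 and 0.31 at 14 days, against -0.02 to 0.04 in controls. Without 14-day replicate 2 it was 0.24. Ifit3, an antiviral effector, read 10.56 on that array, 7.54 to 8.22 on the other late arrays and 7.30 to 7.32 in controls. Oas1a, which senses double-stranded RNA, stood at 0.83 ± 0.23 (adjusted p = 0.205). All 13 antigen presentation genes were positive, with 0 called and a median of 0.26, or 0.16 without 14-day replicate 2. Single late arrays ran from -0.14 to 0.51, and 2 of the genes had an unadjusted p under 0.05 (15.4%, beside 12.2% of all genes). The 24 macrophage genes had a median of -0.01, with P2ry12, a receptor of tissue-resident cells, at 0.46 and the lysozyme gene Lyz2 at -0.41.

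The neutrophil list had a median of -1.15, which rested on control replicate 3: S100a8 read 6.88, 8.20 and 10.82 in controls and 5.78 to 8.56 late. None of its 9 genes passed, and without that control the median was -0.33. All 10 bone genes, which mark the surrounding tissue, were negative and 0 were called, with a median of -0.39, or -0.11 when control replicate 3 was dropped. Dmp1, a protein of mineralized matrix, lay below all controls on every late array (-0.65 ± 0.16, adjusted p = 0.187). Of 12 cartilage and tendon genes 0 passed and 5 were lower at an unadjusted p under 0.05 (41.7%, beside 4.97% of all genes), among them Acan, Tnmd (-0.54) and Ucma (-0.39). The list median was -0.25, or -0.04 with no filter on dim genes. The 18 collagen and matrix genes were split evenly, 9 positive and 9 negative, with a median of -0.01, values from -0.55 to 0.34 and 0 called. Late arrays lay wholly below controls for 4 of them, Lox (-0.55), Col4a1 (-0.35), Col4a2 (-0.32) and Sparc (-0.29), and wholly above for 0 (22.2% beside 5.43% of all genes). How far tissue around the nerve entered each sample was not tested.

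**Figure D3:**
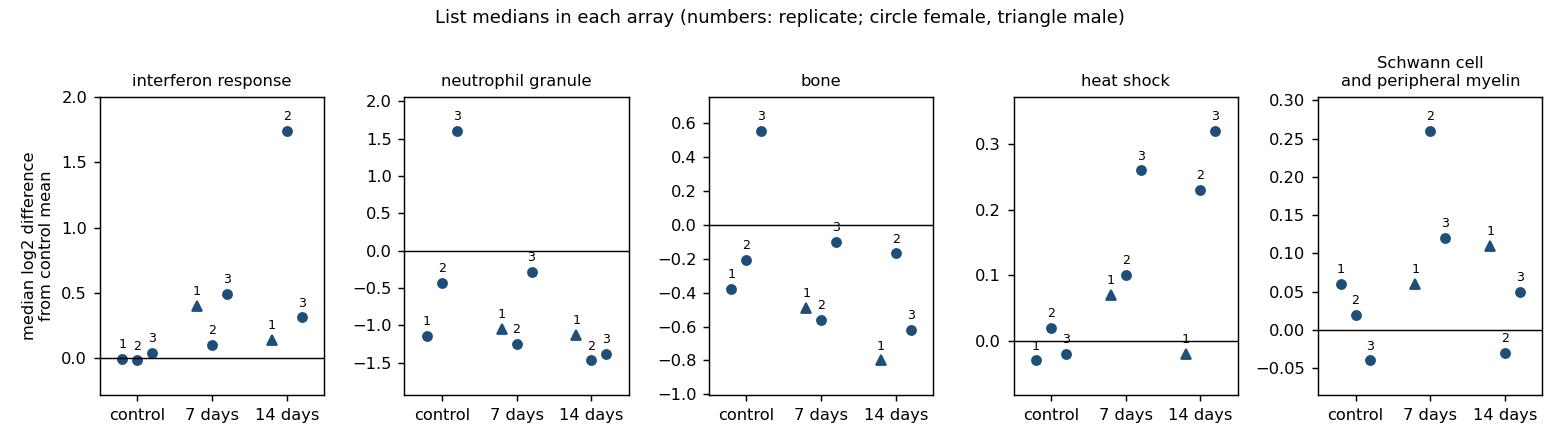
Median log2 difference from the control mean (vertical axes) over 5 gene lists on each of the 9 arrays, with the replicate number beside each point, circles for females and triangles for males. Interferon genes reach 1.74 in 14-day replicate 2, and neutrophil genes reach 1.60 in control replicate 3.

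Neuronal identity genes had a median near 0, and genes of axon injury a positive one. The 23 spiral ganglion neuron genes had a median of -0.01 and 0 were called. At an unadjusted p under 0.05, 1 was higher and 1 lower (8.7%, beside 12.2% of all genes). Uchl1, a neuronal ubiquitin hydrolase, stood at 0.30 ± 0.07 (adjusted p = 0.169) and Prox1 at -0.26 (adjusted p = 0.341). Of 14 axon injury genes 0 passed and 5 were higher at an unadjusted p under 0.05 (35.7%, beside 7.28% of all genes), with 0 lower. Gadd45a, a stress gene, read 6.95, 6.97 and 6.95 in controls, 7.10, 8.12 and 8.14 at 7 days and 7.58, 7.41 and 7.30 at 14 days (0.65 ± 0.20, adjusted p = 0.237). The neuropeptide precursor Vgf was at 1.27 at 7 days and 0.46 at 14 days, the transcription factor Atf3 at 0.88 and 0.63, Jun at 0.32 and 0.26 and the stathmin gene Stmn4 at 0.50 and 0.45. At 1 day after noise Vgf had been at 2.91, Gadd45a at 1.84 and Atf3 at 1.64.

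Lipid, growth and signalling lists gave 0 calls. Among 19 cholesterol synthesis genes 5 were higher and 1 lower at an unadjusted p under 0.05 (31.6%, beside 12.2% of all genes). Fdps stood at 0.23 and Sqle at 0.20. The median of the cholesterol list was 0.08, or 0.02 without control replicate 2, against 0.22 immediately after noise. Of 11 prostaglandin genes 4 were lower at an unadjusted p under 0.05 (36.4%, beside 4.97% of all genes): the prostacyclin synthase Ptgis (-0.67), the receptors Ptger4 (-0.39) and Ptgir (-0.25) and the degrading enzyme Hpgd (-0.35). Ptgis read 8.53, 8.64 and 9.48 in controls, and without control replicate 3 its difference was -0.37. The cell cycle list, of 11 genes, had a median of -0.12, or -0.04 without control replicate 3. Its proliferation marker Mki67 read 4.34, 4.48 and 7.57 in controls and 3.91 to 4.41 on the late arrays, so that its difference of -1.29 came from control replicate 3. Immediate early genes had a median of 0.12 over 19 genes, against 1.17 immediately after noise, with Fos at 0.94 ± 0.37 (adjusted p = 0.336). The large lists of cytosolic ribosomal proteins (43 genes) and oxidative phosphorylation (74 genes) had medians of -0.02 and 0.01.

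**Figure D4:**
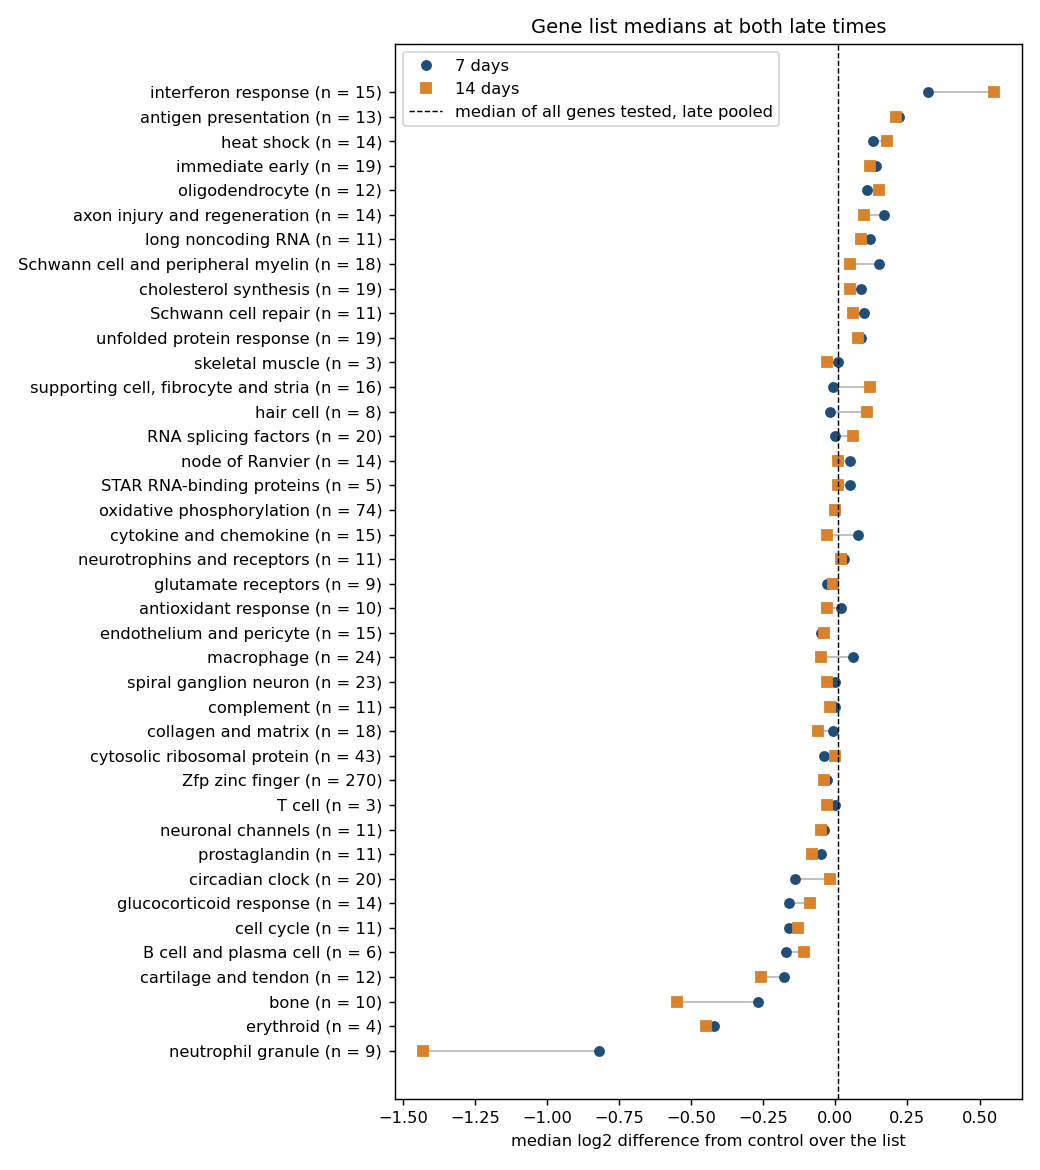
Median log2 difference from control (horizontal axis) of all 40 gene lists at 7 days (circles) and 14 days (squares), with the number of genes tested and, as a dashed line, the median of all genes in the pooled comparison (0.01). The neutrophil list lies lowest and interferon response highest, at pooled medians of -1.15 and 0.40, each moved by a single array as given in the text.

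When every probe set with a gene was tested by itself, more probe sets passed, mostly lower ones. Of 26207 probe sets, 14 were higher and 33 lower (0.179%, with 13.6% at an unadjusted p under 0.05). They came from 13 genes with a higher set and 31 with a lower set. At 7 days alone 18 passed and at 14 days 0. The 5 genes of the main fit were among these 44, and 11 of the 44 passed by their brightest set. Besides the 5, these were Tns3, Shh, Fut9, Tcap, Acan and Pcf11. The other 33 passed only by a dimmer set, 8 higher and 25 lower. For those 25, the brightest set of the same gene differed by -0.32 to 0.09 with a median of -0.07, and in 5 of them it had the opposite sign.

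This result rested on few arrays. Dropping control replicate 2 or 3 left 0 of the 47 calls, and dropping control replicate 1 left 3. It was 0 in the 9 arrays alone, 15 without the mean-variance trend and 316 without 7-day replicate 1. Leaving out 7-day replicate 2 or 3 gave 17 or 13, and leaving out 14-day replicate 2 gave 4. With sex as a term 122 passed, all 47 among them, and in female arrays 107, with 30 of the 47.

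Among the lower sets were further members of the clock family. Tef, a PAR bZIP factor related to Dbp, read 8.42, 8.27 and 8.08 in controls, 7.53, 7.53 and 7.64 at 7 days and 7.82, 7.39 and 7.90 at 14 days in the set that passed (-0.62 ± 0.11, adjusted p = 0.0346). Its brightest set differed by -0.09. The nuclear receptor Rora fell by 0.44 ± 0.07 in a set that read 8.37, 8.57 and 8.43 in controls and 7.88 to 8.22 late (adjusted p = 0.0234). Its brightest set differed by -0.04, and over the 9 Rora sets the differences ran from -0.44 to 0.15. For both genes the late arrays of the set that passed lay below all controls.

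Other lower sets, chosen after their values were seen, belonged to these genes. The chromatin remodeller Atrx read 8.81, 8.75 and 8.68 in controls, 8.39, 7.92 and 8.26 at 7 days and 8.17, 8.21 and 8.34 at 14 days (-0.53 ± 0.09, adjusted p = 0.0373), while its brightest set differed by 0.01. Malat1, an abundant nuclear noncoding RNA, fell by 0.23 ± 0.04 in the set that passed (adjusted p = 0.0402), while its brightest set stood at -0.16 and 6 of its 7 sets were negative. A dimmer set also fell for the remodeller Chd2 (-0.41, brightest set -0.06) and the helicase Ddx46 (-0.42, brightest -0.07). The same held for the RNA-binding proteins Syncrip (-0.41, brightest -0.13) and Hnrnpr (-0.40, brightest 0.02). Among ubiquitin ligases the falling sets were those of Herc1 (-0.49, brightest -0.13), Herc2 (-0.78, brightest 0.09) and Birc6 (-0.47, brightest -0.15). The brightest sets of Hnrnpr and Herc2 thus had the opposite sign. The lower 18S readings at the late times are given above, and their part in these falls was not tested.

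Higher sets, also chosen after their values were seen, included the following. Tardbp, which encodes TDP-43, rose in 2 sets, by 0.40 ± 0.07 (adjusted p = 0.0352) and 0.37 ± 0.06 (adjusted p = 0.0346), while its brightest set differed by -0.05. The first read 8.13, 8.20 and 8.27 in controls, 8.49, 8.51 and 8.72 at 7 days and 8.49, 8.66 and 8.72 at 14 days. Late arrays lay above all controls in both. Meg3, the imprinted noncoding RNA, rose by 0.36 ± 0.07 in 1 of its 11 sets (adjusted p = 0.0469), 10 of which were positive, the brightest at 0.09. A dimmer set of Rcan1, an inhibitor of calcineurin, rose by 0.45 ± 0.07 (adjusted p = 0.0228), while its brightest set stood at 0.15 (adjusted p = 0.358). For the ephrin ligand Efnb2 a dimmer set rose by 0.49 ± 0.09 (adjusted p = 0.0386), and the brightest stood at 0.11 (adjusted p = 0.683).

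**Figure D5:**
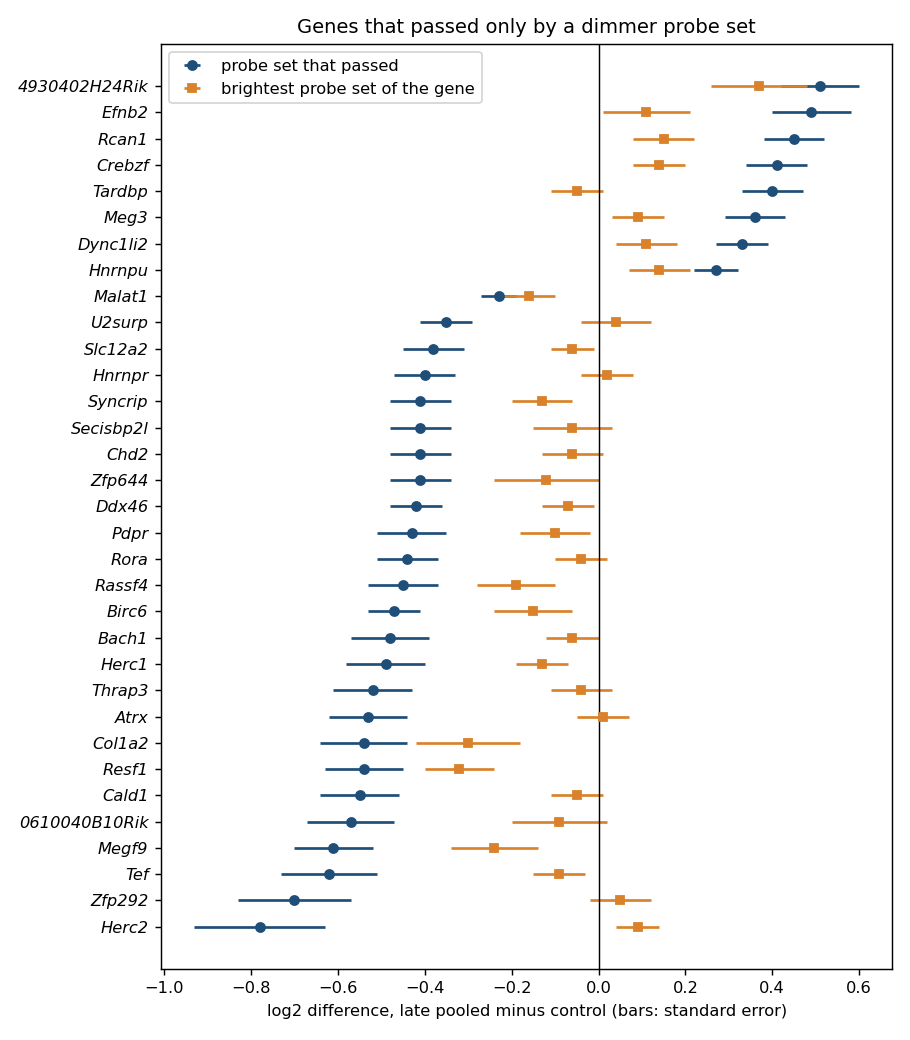
Late minus control difference in log2 units (horizontal axis) with its standard error for the 33 genes that passed only by a dimmer probe set: circles show the set that passed (the larger change where a gene had 2) and squares the brightest set of the same gene. The 25 genes with a lower set that passed have brightest sets between -0.32 and 0.09.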

How the data were processed

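The deposited values are log2 intensities from Affymetrix 3′ arrays, made from 50 ng of total RNA. Per the submitters' processing notes the tools were Affymetrix Expression Console, RMA and MAS5; the sources used here do not say which gave the deposited log2 values. Medians of the arrays were 5.87 to 5.92, so no further normalization was applied. The number of arrays limits the precision.

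Of 45101 probe sets, 34945 named 1 gene, 932 several and 9160 none by the platform annotation. Each of 18193 genes was represented by its brightest set, and the lowest 25% by mean (at or below 4.70) were left out. The main model held 5 group means over all 15 arrays (limma 3.58.1, R 4.3.3, eBayes with trend, two-sided, Benjamini-Hochberg within a contrast, 10 residual degrees of freedom). Errors beside differences are standard errors. The remaining probe sets, controls included, had a separate fit. Functions were tested on simulated data.

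Members and the 40 lists (604 memberships by name, 57 without a probe set) were chosen with earlier results of these data known. Named genes were the called ones whose late arrays did not overlap controls and, with fewer than 5 in a direction, the 5 smallest p. To these came the 3 smallest p each way between the late times, and Qk, Mbp, Pmp22 and Mag. Other genes were named after their values were seen. Promoter sequences are RefSeq's (GRCm38.p6). Alternatives are listed in the closing section.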

Additional observations from a re-analysis of the deposited data

Results flagged for a closer look

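List medians on the 6 late arrays were screened for an array far from the rest (Dixon's criterion, critical value 0.625), together with the named genes. Of 58 quantities 5 met it, and chance gives about 1 in 20. The interferon response list was at 1.74 in 14-day replicate 2, and the next array was at 0.49. The neutrophil granule list was at -0.29 in 7-day replicate 3, with the next at -1.05, and the cartilage and tendon list at -0.04 in the same array, with the next at -0.25. In 7-day replicate 2 the cell cycle list was at -0.35 (next -0.16) and the RNA splicing list at -0.06 (next 0.05).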

How the results depend on the processing

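The 5 pooled calls (late pooled against control) were all persistent genes, so both counts moved together except where stated. They were 2 as the mean over probe sets, 44 genes with every probe set by itself (16 at 7 days against control), 2 for eBayes without trend, 11 with array weights (1 at 14 days against control), 10 with sex as a term and 21 in female arrays only. In the 9 arrays alone 1 passed, and 0 with the late arrays there as a single group. An unadjusted p under 0.05 with 1.5-fold gave 59 (58 at 7 days, 58 at 14 days, 7 between 14 days against 7 days), of which 26 did not overlap controls and 24 were persistent; the other 2, Dbp and Ciart, differed between 14 and 7 days by that criterion (log2 1.01 and 0.61). With the lowest 50% of genes left out 7 passed at 7 days. The fit to all 15 arrays with late arrays as a single group, added after the data were seen, called 4, and Dbp and Ciart were lost (adjusted p = 0.111). With 1 array left out, counts ranged from 0 to 28 pooled and persistent, 2 to 50 at 7 days, 0 to 1 at 14 days and 0 to 1 between them. The replicate numbers were not treated as pairs in the main model. Over 9 pairs of equal number the correlation of deviations ran from -0.33 to 0.30, with 4 over 0.1. Over pairs of unequal number it ran from -0.49 to 0.37. With 3 arrays a group these values can neither show nor exclude pairing. With the replicate block 5 genes passed, and Slc43a1 was lost (adjusted p = 0.0560); probe sets by themselves gave 80. Over 25 settings Ciart was kept in 21, Dbp in 20, Neat1 in 15, Slc43a1 in 13 and Ceacam10 in 12, and no value changed sign. Quantile normalization gave 5 and a common 75th percentile 6. Of 958 checks of list medians 24 moved by more than their spread. Near background, differences of dim genes may be understated, which was not tested.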

Other observations

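Among all genes, 59 (0.432%) had an unadjusted p under 0.05 and at least a 1.5-fold late difference, 32 higher and 27 lower, and several outside the lists were named after their values were seen. Transthyretin (Ttr), the thyroid hormone carrier, stood at 0.88 ± 0.27 (adjusted p = 0.227), the homeobox gene Otx2 at 0.81 ± 0.26 (adjusted p = 0.245) and the endocytic receptor Lrp2 at 0.83 ± 0.28 (adjusted p = 0.272). Cndp1, a carnosine dipeptidase, was at 0.87 ± 0.19 (adjusted p = 0.139), the anion exchanger Slc26a7 at 0.75 ± 0.18 (adjusted p = 0.172), the homeobox gene Meis1 at 0.97 ± 0.27 (adjusted p = 0.205) and Dkk2, a Wnt antagonist, at 1.04 ± 0.32 (adjusted p = 0.233). For Cndp1, Slc26a7, Meis1 and Otx2 every late array lay above every control. Immediately after noise these genes had stood at 0.96, 0.92, 1.13 and 0.93, and Ttr, Lrp2 and Dkk2 at 0.77, 1.01 and 1.17. Their late differences were thus not particular to the late times. Control replicate 1 was the lowest control for Cndp1, Otx2, Lrp2 and Dkk2. On the lower side Btla, an immune receptor, was at -0.70 ± 0.15 (adjusted p = 0.139) and the steroid sulfate transporter Slc10a6 at -0.75 ± 0.20 (adjusted p = 0.205), both below all controls on every late array. Immediately after noise Btla had been at -0.83 and Slc10a6 at -0.76.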
